A study of Mus musculus with 40 samples.

Results

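The 10 genes described here are transcription targets, feedback inhibitors, a ligand and receptors of bone morphogenetic protein (BMP) signalling. They are the inhibitors of DNA binding Id1, Id2, Id3 and Id4, the inhibitory Smads Smad6 and Smad7, the transcription factor gene Runx2, the ligand gene Bmp4 and the receptor genes Bmpr1a and Bmpr2. They were chosen by symbol from the 23480 genes listed in both expression tables of the study, and all 10 were found in both. Id1, Id2, Id3, Smad7, Runx2, Bmpr1a and Bmpr2 had enough reads to be tested in both tables and Smad6 in 1 of them, while Id4 and Bmp4 stayed near the detection floor, under the minimum for testing.

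BMPs are secreted ligands that bring type I receptors such as BMPR1A and the type II receptor BMPR2 together on the cell surface. The activated type I receptor phosphorylates Smad1, Smad5 and Smad9, which enter the nucleus with Smad4 and switch on targets, of which the Id genes are among the most direct. Id proteins have a helix-loop-helix but no basic DNA-binding region, so they hold bHLH partners such as the E proteins off DNA. Smad6 and Smad7 are induced by the same pathway and restrain it. Matrix Gla protein, encoded by Mgp, is a secreted protein that binds BMPs and inhibits calcification.

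The study profiled the mouse mammary carcinoma cells 4T1 in 10 lines, each carrying its own short hairpin RNA. Such RNAs are processed in the cell into small RNAs that lower pairing mRNAs. Its question was how far hairpins of 2 sources disturb genes other than their target. The hairpin 66708 against Slpi, which encodes a secreted protease inhibitor, was set against the shERWOOD hairpins Slpi1U1, Slpi1U2, Slpi2 and Slpi4. The hairpin 88943 against Mgp was set against the shERWOOD hairpins Mgp1, Mgp1U1, Mgp1U3 and Mgp2. Lines 66708 and 88943 were selected with puromycin at 1 µg/ml and the other 8 with hygromycin at 500 µg/ml, after infection at a multiplicity of 0.3 and over about 10 days. The source of a hairpin, TRC for 66708 and 88943 and shERWOOD for the rest, was inferred from its name and its drug and was not read from a label. Source, vector and drug go together in these lines and cannot be told apart, and no untransduced line or hairpin against an unrelated gene was analysed here.

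Each hairpin had 2 libraries. The labels do not tie these to separate cultures, so the p-values gauge only how far libraries differ, which may be technical. Totals per library were 12.2 to 28.5 M reads for the Slpi table and 12.1 to 23.3 M reads for the Mgp table. All 7 epithelial markers checked were detected in both tables, with summed levels of 2267 to 2314 CPM in 66708 against 2015 to 2162 CPM in its shERWOOD lines, and of 2609 to 2617 CPM in 88943 against 1540 to 1728 CPM in its shERWOOD lines. CPM scales the reads of a gene to all counted reads of its library. Leukocyte markers summed to at most 0.41 CPM and endothelial markers to at most 0.911 CPM in any library. The ribosomal RNA gene Rn45s took 2.31% to 2.77% of reads in 66708 against 1.27% to 1.87% in its shERWOOD lines, and 1.39% to 1.54% in 88943 against 0.961% to 2.39% in its shERWOOD lines. Whether these differences contribute to the values below was not tested.

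Id2 and Id3, whose levels spread most over the 10 lines, are shown by their RefSeq promoter windows, which run from 250 bases before to 50 bases after the annotated start (GRCm38.p6). The Id2 window is chr12:25096043-25096342 on the minus strand and the Id3 window is chr4:136143572-136143871 on the plus strand. Capitals mark GGCGCC, the core of a BMP response element, and CAGAC, the Smad box, read on either strand.
Id2: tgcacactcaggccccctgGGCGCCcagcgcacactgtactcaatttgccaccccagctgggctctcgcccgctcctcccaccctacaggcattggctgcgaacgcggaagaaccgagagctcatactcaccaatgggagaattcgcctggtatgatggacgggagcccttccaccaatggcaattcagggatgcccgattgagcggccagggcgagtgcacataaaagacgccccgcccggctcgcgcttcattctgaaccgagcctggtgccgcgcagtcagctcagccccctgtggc
Id3: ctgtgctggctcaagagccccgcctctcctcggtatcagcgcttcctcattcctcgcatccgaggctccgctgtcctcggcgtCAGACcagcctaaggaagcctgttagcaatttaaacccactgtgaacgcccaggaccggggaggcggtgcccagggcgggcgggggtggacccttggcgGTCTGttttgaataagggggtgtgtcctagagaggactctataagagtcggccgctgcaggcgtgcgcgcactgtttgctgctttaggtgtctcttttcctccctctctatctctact
The Id2 window held 1 GGCGCC, at -231 from the start, and no CAGAC. In the Id3 window 2 matches of CAGAC lay at -167 and -68, and the match at -167 overlapped a GTCTGNC, part of a Smad1/5 and Smad4 element, at -169. GGCGCC also occurred in the windows of Id4 at -148, Bmpr1a at -198 and Bmpr2 at -105. The longer form of this element, TGGCGCC, was in none of the windows searched for these genes and in 4.03% of all windows. Over all 32851 mouse windows of the same length, 11.9% held GGCGCC, 15.2% GTCTGNC and 49.6% CAGAC, so the matches are a description of sequence and not of binding. The E-box pattern CANNTG, read by bHLH factors, occurred in 72.3% of all windows, at -196 in that of Id2 and nowhere in that of Id3.

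Id1, Id2 and Id3 differed in opposite directions in the TRC lines of the 2 tables. They were higher in line 66708 than in the 4 Slpi shERWOOD lines and lower in line 88943 than in the 4 Mgp shERWOOD lines. Both TRC lines had more Mgp transcript than their shERWOOD lines, so these 3 genes stood with Mgp in the Slpi table and against it in the Mgp table. The difference between the tables was not tested, and the share of all genes with such opposite directions was not computed.

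Line 66708 had 6 of the 8 tested genes higher and 0 lower, where limma called 53.8% of all 11243 tested genes, 29.3% higher and 24.5% lower. At an unadjusted p under 0.05 there were also 0 lower, and with voom, limma's fit to read counts, there was 1, Bmpr2. Both 66708 libraries lay outside the range of the 8 shERWOOD libraries for 47% of all genes, above it for 25.8% and below it for 21.2%. The called genes were Id1, Id2, Id3, Smad7, Runx2 and Bmpr1a, and each was also higher than in every one of the 4 shERWOOD lines taken singly, in contrasts that called 46.1% of all genes against Slpi1U1, 46.7% against Slpi1U2, 45.6% against Slpi2 and 36.1% against Slpi4. Because so many genes differed in this line, the count says little about BMP genes as a set. The median log2 difference was 0.27 over the 8 tested genes and 0.01 over all genes.

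Of the 7 genes tested in line 88943, 1 was higher, Bmpr2, and 4 were lower, Id1, Id2, Id3 and Runx2. With voom 3 were higher, Smad7 and Bmpr1a being added, and 3 were lower, Runx2 being lost, and with equal library medians 3 were higher and 4 lower. In the main fit of this line 68.5% of all 11037 tested genes were called, 31.3% higher and 37.2% lower. Over all genes voom called 45.6% higher and 25.8% lower, and equal library medians 34.3% and 34.7%. Both 88943 libraries lay outside the shERWOOD range for 58.6% of genes, above it for 26.7% and below it for 31.9%. The 5 genes called on the deposited scale were also called against each shERWOOD line taken singly, in contrasts that called 60.8% of all genes against Mgp1, 60.9% against Mgp1U1, 61.5% against Mgp2 and 64.9% against Mgp1U3. The median log2 difference was -0.17 over the 7 genes and -0.01 over all genes.

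**Figure D1:**
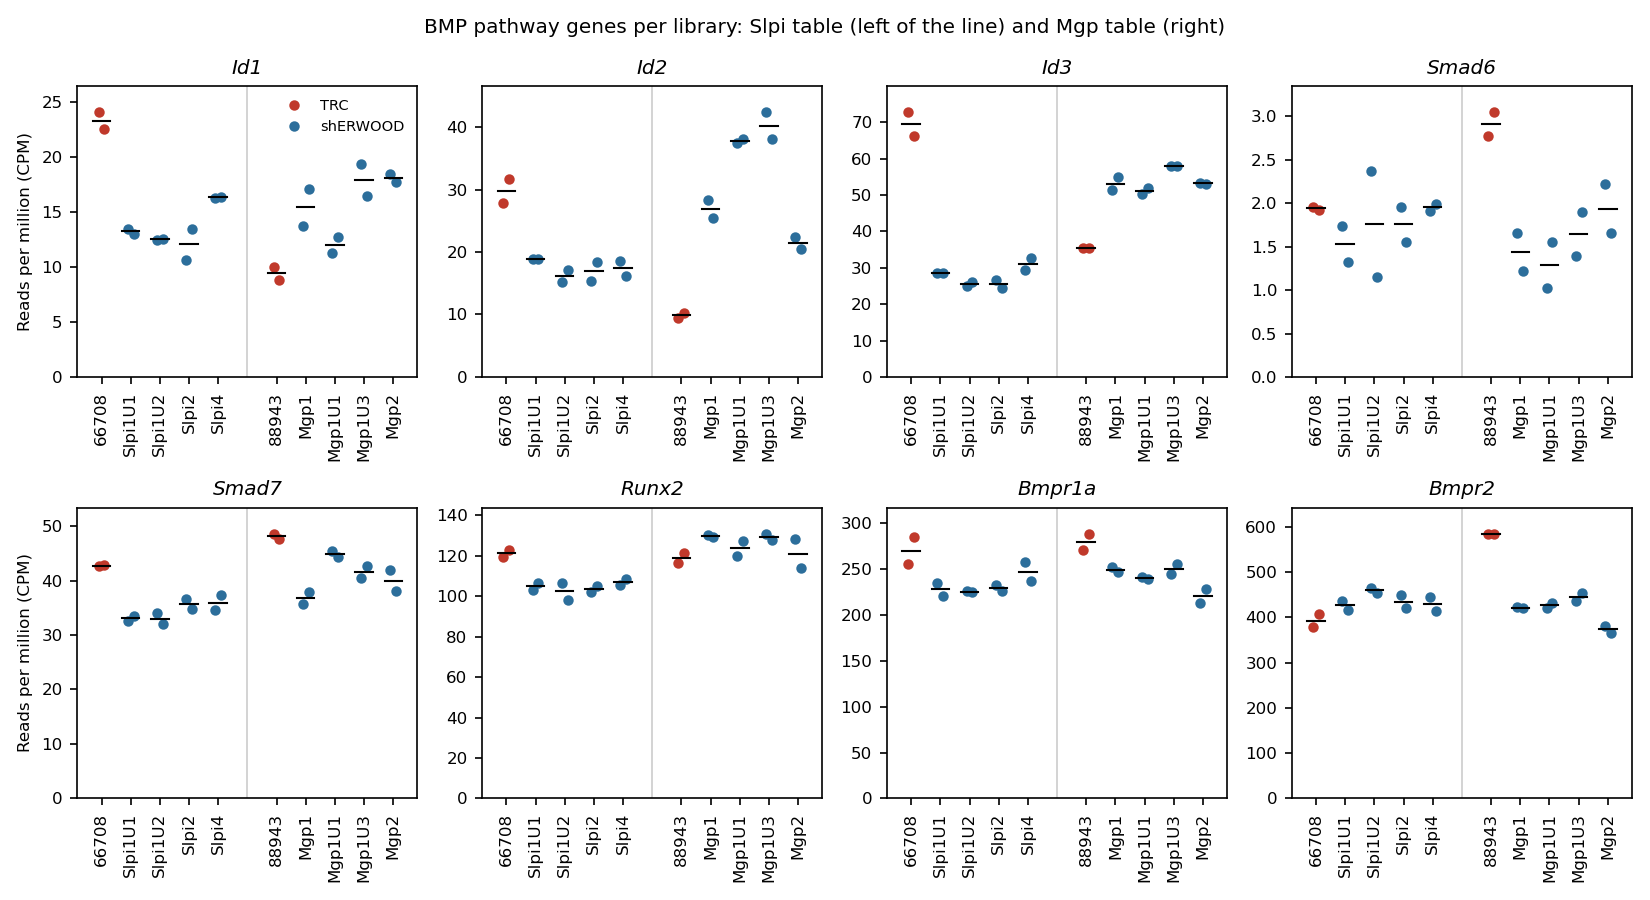
Level in CPM (vertical axis, from 0) of 8 BMP pathway genes in each of the 20 libraries, grouped by hairpin line, with TRC lines in red left of their shERWOOD lines in blue, the Slpi table left and the Mgp table right of the grey line, and black bars for the mean of 2 libraries. For Id1, Id2 and Id3 the red points lie above all blue points of the Slpi table and below all blue points of the Mgp table.

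Id3, which lies on chromosome 4 (GRCm38, 136143497 to 136145755, plus strand), had the largest difference of the 10 genes in the Slpi table. It stood at 72.7 and 66.3 CPM in the 66708 libraries, against a lowest of 24.5, a median of 27.5 and a highest of 32.8 CPM in the 8 Slpi shERWOOD libraries. Both 66708 libraries were over the whole shERWOOD range. The mean was 69.5 ± 4.52 CPM in 66708 (SD, n = 2 libraries) and 27.6 ± 2.65 CPM in the shERWOOD lines (SD, n = 4 lines), which is 2.50-fold higher by voom. On the deposited scale the log2 difference was 0.93 ± 0.040 (SE, limma, adjusted p = 5.42e-11).

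With the Mgp hairpins, Id3 had 35.5 and 35.4 CPM in the 88943 libraries, against a lowest of 50.3, a median of 53.2 and a highest of 57.9 CPM in the 8 shERWOOD libraries. Both 88943 libraries were under the whole shERWOOD range. Id3 was 1.52-fold lower in 88943, and its log2 difference was -0.47 ± 0.032 (SE, limma, adjusted p = 1.07e-09).

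Id2, on chromosome 12 (GRCm38, 25093799 to 25097140, minus strand), had 27.9 and 31.8 CPM in the 66708 libraries, against a lowest of 15.1, a median of 17.8 and a highest of 18.9 CPM in the Slpi shERWOOD libraries. It was 1.75-fold higher in 66708, with a log2 difference on the deposited scale of 0.47 ± 0.045 (SE, limma, adjusted p = 5.35e-07). Among the Mgp lines it had 9.50 and 10.2 CPM in the 88943 libraries, against a lowest of 20.5, a median of 32.9 and a highest of 42.4 CPM in the shERWOOD libraries. This was the largest difference of any of the 10 genes in the Mgp table, 3.10-fold lower in 88943 by a log2 difference on that scale of -0.82 ± 0.038 (SE, limma, adjusted p = 5.64e-12). The groups did not overlap in either table.

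Id1, on chromosome 2 (GRCm38, 152736251 to 152737410, plus strand), moved in the same directions from a lower level of reads. It had 24.0 and 22.6 CPM in the 66708 libraries, against a lowest of 10.7, a median of 13.2 and a highest of 16.4 CPM in the Slpi shERWOOD libraries. The log2 difference was 0.43 ± 0.040 (SE, limma, adjusted p = 3.5e-07), or 1.72-fold higher. In the Mgp table it had 10.0 and 8.84 CPM in the 88943 libraries, against a lowest of 11.3, a median of 16.8 and a highest of 19.4 CPM in the shERWOOD libraries. There the log2 difference was -0.35 ± 0.042 (SE, limma, adjusted p = 1.1e-06), or 1.69-fold lower. Both TRC lines lay outside the shERWOOD range.

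When depth was taken from library totals, the median gene itself shifted by -0.07 on the log2 scale in 66708 and by 0.11 in 88943. Relative to that shift, the voom log2 differences were 0.85 for Id1, 0.88 for Id2 and 1.39 for Id3 in 66708. In 88943 they were -0.87 for Id1, -1.74 for Id2 and -0.71 for Id3. The directions of the 3 genes were the same on both scales.

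Id4 was barely detected, with 3 to 14 reads per library, and its line means ran from 0.251 to 0.466 CPM. The TRC libraries lay within the shERWOOD range in both tables (0.452 and 0.350 CPM in 66708, against 0.196 to 0.505 CPM in the Slpi shERWOOD libraries). Its mean was under the minimum for testing. In the fit with no minimum it did not pass in 66708 (log2 difference 0.016 ± 0.033, SE, limma, adjusted p = 0.761) or in 88943 (-0.026 ± 0.029, adjusted p = 0.51), on a scale that understates differences of genes with so few reads.

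**Figure D2:**
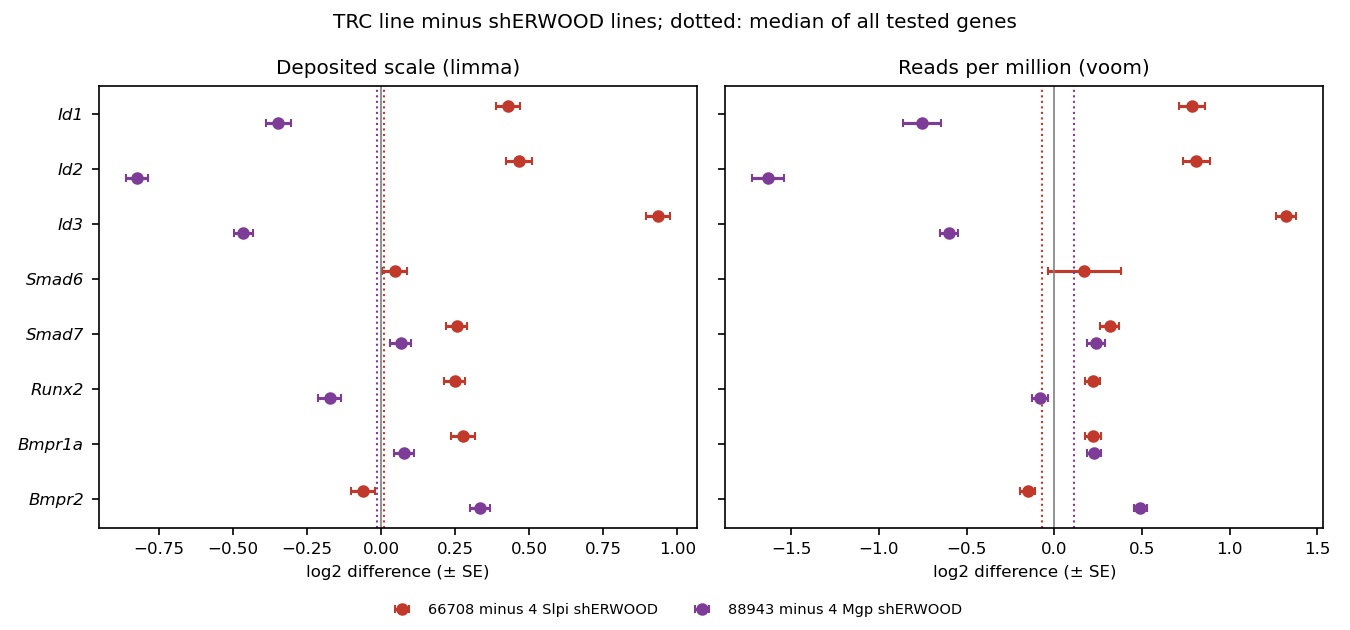
Log2 difference between the TRC line and the mean of its 4 shERWOOD lines (horizontal axis), with the standard error, for each tested gene in the Slpi table (red) and the Mgp table (purple), on the deposited scale (left) and from recovered reads with voom (right). Dotted lines give the median of all tested genes. Id1, Id2 and Id3 lie right of 0 in red and left of 0 in purple on both scales.

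Smad7, on chromosome 18 (GRCm38, 75367529 to 75395935, plus strand), encodes an inhibitory Smad that blocks type I receptors of both the BMP and the TGF-beta branch. It had 42.6 and 42.9 CPM in the 66708 libraries, against a lowest of 32.0, a median of 34.2 and a highest of 37.3 CPM in the Slpi shERWOOD libraries, and the groups did not overlap. It was 1.24-fold higher in 66708, and the log2 difference came to 0.26 ± 0.036 (SE, limma, adjusted p = 2.34e-05). Among the lines against Mgp it had 48.6 and 47.6 CPM in the 88943 libraries, against a lowest of 35.7, a median of 41.2 and a highest of 45.4 CPM in the shERWOOD libraries. The CPM did not overlap, but the values on the deposited scale did, and the log2 difference of 0.07 ± 0.035 missed the threshold (SE, limma, adjusted p = 0.1). With voom it was 0.24 (adjusted p = 0.000507), or 0.13 relative to the median gene. The call also appeared without library Mgp2 replicate 1 (adjusted p = 0.0312), and it hangs on how libraries are scaled.

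Smad6, which acts more narrowly on BMP receptors and Smad1, lies on chromosome 9 (GRCm38, 63953076 to 64022059, minus strand) and was the lowest of the tested genes. It had 1.96 and 1.93 CPM in the 66708 libraries, against a lowest of 1.15, a median of 1.83 and a highest of 2.37 CPM in the Slpi shERWOOD libraries. The log2 difference of 0.05 ± 0.041 did not pass (SE, limma, adjusted p = 0.368). Its mean in the Mgp table was just under the minimum for testing. Both 88943 libraries, with 2.78 and 3.05 CPM, were above the shERWOOD libraries, which ran from 1.02 to 2.22 CPM. Tested among all genes with any spread, it was higher in 88943 by 0.14 ± 0.036 on the log2 scale (SE, limma, adjusted p = 0.0086).

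Runx2, on chromosome 17 (GRCm38, 44495987 to 44814797, minus strand), encodes a transcription factor of bone formation that works with BMP-activated Smads and is also expressed in mammary carcinoma. Of its exon bases, 5.87% also belong to the antisense gene Runx2os1, and since the strand setting of the counting is not given in the sources used here, reads of the pair cannot be told apart. It had 119.6 and 123.1 CPM in the 66708 libraries, against a lowest of 98.3, a median of 105.2 and a highest of 108.3 CPM in the Slpi shERWOOD libraries. It was 1.16-fold higher in 66708 with no overlap (log2 difference 0.25 ± 0.036, SE, limma, adjusted p = 3.02e-05).

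Among the lines against Mgp, Runx2 had 116.6 and 121.4 CPM in the 88943 libraries, against a lowest of 113.7, a median of 128.1 and a highest of 130.8 CPM in the shERWOOD libraries. On the deposited scale both 88943 libraries were lowest, the log2 difference being -0.17 ± 0.038 (SE, limma, adjusted p = 0.000649), while the CPM overlapped and voom gave -0.08 (adjusted p = 0.128). The call was also lost with hairpin means as samples (adjusted p = 0.0561).

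Genes expressed in bone-forming cells were looked at beside it. Summed over Bglap, Ibsp and Sp7, the osteoblast markers had 3.64 to 4.07 CPM in 66708 against 1.23 to 2.26 CPM in its shERWOOD lines, and 1.42 to 2.10 CPM in 88943 against 0.279 to 1.12 CPM in its shERWOOD lines. Ibsp, which encodes bone sialoprotein, was the most abundant of them in both tables, at up to 3.69 CPM in 66708 and up to 1.48 CPM in 88943. The sum was thus higher in both TRC lines although Runx2 was not. These sums were not tested.

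Bmpr1a, a type I receptor gene on chromosome 14 (GRCm38, 34410734 to 34503341, minus strand), shares 4.57% of its exon bases with the antisense gene Gm17110. It had 255.9 and 284.8 CPM in the 66708 libraries, against a lowest of 221.0, a median of 229.5 and a highest of 257.9 CPM in the Slpi shERWOOD libraries, so that the CPM overlapped by 1 library. The log2 difference of 0.28 ± 0.042 passed (SE, limma, adjusted p = 4.84e-05), at 1.17-fold. Bmpr1a in the Mgp table had 271.2 and 288.6 CPM in the 88943 libraries, against a lowest of 213.6, a median of 243.0 and a highest of 255.4 CPM in the shERWOOD libraries. The log2 difference of 0.08 ± 0.034 fell just short (SE, limma, adjusted p = 0.0533).

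That result turned on single libraries. It passed without 88943 replicate 1 (adjusted p = 0.0497), without Mgp2 replicate 1 (0.0398) or replicate 2 (0.0116), and without Mgp1U3 replicate 2 (0.0417). With voom it was 0.22 (adjusted p = 5.46e-05), or 0.11 relative to the median gene.

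Bmpr2, the type II receptor gene on chromosome 1 (GRCm38, 59763400 to 59879014, plus strand), differed most in 88943. It had 583.0 and 583.8 CPM in the 88943 libraries, against a lowest of 365.7, a median of 420.9 and a highest of 453.0 CPM in the Mgp shERWOOD libraries. It was 1.41-fold higher without overlap, and the log2 difference was 0.33 ± 0.034 (SE, limma, adjusted p = 1.2e-07). In the Slpi table it had 379.4 and 406.0 CPM in the 66708 libraries, against a lowest of 414.1, a median of 439.6 and a highest of 465.2 CPM in the shERWOOD libraries. Here the log2 difference of -0.06 ± 0.039 did not pass (SE, limma, adjusted p = 0.208), but voom gave -0.15 (adjusted p = 0.00683), or -0.08 relative to the median gene.

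Bmp4, a BMP ligand gene on chromosome 14 (GRCm38, 46383520 to 46390669, minus strand), had 0 to 2 reads in each library of the Slpi table and 0 reads in every library of the Mgp table. A count of 0 allows up to 3 reads, which is 0.105 to 0.248 CPM depending on the library. No fold is given for it.

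Per kilobase of exon and averaged over the 10 lines, Bmpr1a stood highest at 38.4 CPM per kb, ahead of Bmpr2 at 24.4, Id3 at 24.1, Runx2 at 13.1, Id1 at 13.0, Id2 at 9.65 and Smad7 at 8.67 CPM per kb. The order of Id3 and Bmpr2 differed between lines, with Id3 above Bmpr2 in 66708 (38.8 against 21.8 CPM per kb) and in the 4 Mgp shERWOOD lines (28.6 to 32.3 against 20.8 to 24.7 CPM per kb), and below it in the other 5 lines. Smad6 followed at 0.567 and Id4 at 0.0999 CPM per kb. Of the 8 genes tested, Id1, Id2 and Id3 varied most, with 4.09-fold between the highest and the lowest line for Id2, 2.72-fold for Id3 and 2.47-fold for Id1. Runx2 and Bmpr1a each spanned 1.27-fold. Bmpr1a and Bmpr2 thus varied less over the lines than the target genes Id1, Id2 and Id3 did.

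Among the 4 Slpi shERWOOD lines none of the 8 tested genes differed (limma F-test, 0 of 8 at an adjusted p under 0.05, against 7.02% of all genes). The voom F-test also called 0 of them, against 7.54% of all genes. Id1 came closest, with an unadjusted p of 0.00456 and an adjusted p of 0.057. It averaged 16.3 CPM in Slpi4 and 12.1 CPM in Slpi2, a pair that passed singly (limma, adjusted p = 0.0397) where 3.58% of all genes did. Slpi4 against Slpi1U2, at 12.5 CPM, also passed (adjusted p = 0.0434), where 5.94% of all genes did. Id3 likewise averaged 31.0 CPM in Slpi4 and 25.5 CPM in both Slpi1U2 and Slpi2, but did not pass (adjusted p = 0.0907). By unadjusted p, Id1 and Id3 were under 0.05 in this table.

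Among the 4 Mgp shERWOOD lines 5 of 7 genes differed, against 26.1% of all genes. Id2 had the clearest spread (limma F-test, adjusted p = 2.2e-06). It averaged 40.3 ± 2.97 CPM in Mgp1U3, 37.7 ± 0.457 in Mgp1U1, 26.9 ± 2.12 in Mgp1 and 21.4 ± 1.33 CPM in Mgp2 (SD, n = 2 libraries each). All pairs of these lines differed in Id2 except Mgp1U3 and Mgp1U1, with adjusted p-values from 2.43e-06 for Mgp1U3 against Mgp2 to 0.0353 for Mgp1 against Mgp2. Over all genes these pairs called 22.1% for Mgp1U3 and Mgp2, 9.88% for Mgp1 and Mgp2, 7.23% for Mgp1U3 and Mgp1U1, 7.18% for Mgp1 and Mgp1U1, 6.99% for Mgp1U1 and Mgp2, and 6.45% for Mgp1 and Mgp1U3. Line 88943, at 9.84 CPM, was lower than each of the 4.

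Id1 ordered the same lines differently (adjusted p = 0.00536). It averaged 18.1 CPM in Mgp2, 17.9 in Mgp1U3, 15.4 in Mgp1 and 12.0 CPM in Mgp1U1, and differed for Mgp2 against Mgp1U1 (adjusted p = 0.007) and for Mgp1U3 against Mgp1U1 (adjusted p = 0.00714). Mgp1U1 was thus second highest in Id2 and lowest of the 4 in Id1. Id3 ran only from 57.9 CPM in Mgp1U3 to 51.1 CPM in Mgp1U1 and did not pass (adjusted p = 0.0745), though it did without Mgp2 replicate 1 (0.045) or replicate 2 (0.0349). Runx2 did not pass among these lines (adjusted p = 0.333) except without Mgp2 replicate 1 (0.0224). Without Mgp1U1 replicate 1 the Id1 call was lost (adjusted p = 0.0547).

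Bmpr2 averaged 373.5 CPM in Mgp2 and was lower there than in Mgp1U3 at 443.9 CPM, Mgp1U1 at 426.1 CPM and Mgp1 at 420.9 CPM (F-test, limma, adjusted p = 0.00295). Bmpr1a followed the same order at its low end, with 221.0 CPM in Mgp2 and 240.0 to 250.2 CPM in the other lines (adjusted p = 0.0238). Smad7 was highest in Mgp1U1, at 44.9 CPM, and lowest in Mgp1, at 36.8 CPM (adjusted p = 0.0227). The Smad7 call was lost without either library of Mgp1 or of Mgp1U1 (adjusted p from 0.0598 to 0.141). The Bmpr1a call was lost without any 1 of these 4 libraries, without Mgp2 replicate 1 or without Mgp1U3 replicate 2 (adjusted p from 0.0543 to 0.0719). Both calls were also lost with no minimum level (adjusted p = 0.059 for Smad7 and 0.0595 for Bmpr1a), and that of Bmpr1a with quantile normalisation (adjusted p = 0.0727).

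The Mgp level of each line was the other measure of interest, because Mgp protein binds BMPs. In the Slpi table it was 108.2 and 101.6 CPM in the 66708 libraries, against a lowest of 14.8, a median of 18.4 and a highest of 31.2 CPM in the shERWOOD libraries, which is 5.26-fold higher (limma, adjusted p = 3.68e-13). In the Mgp table, where Mgp is the target, it was 16.2 and 15.4 CPM in the 88943 libraries, against a lowest of 1.06, a median of 2.27 and a highest of 8.42 CPM in the shERWOOD libraries (5.74-fold higher, limma, adjusted p = 8.24e-12). The other target, Slpi, averaged 150.6 CPM in 66708 against 53.3 CPM in the Slpi shERWOOD lines, and 139.9 CPM in 88943 against 498.4 CPM in the Mgp shERWOOD lines.

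**Figure D3:**
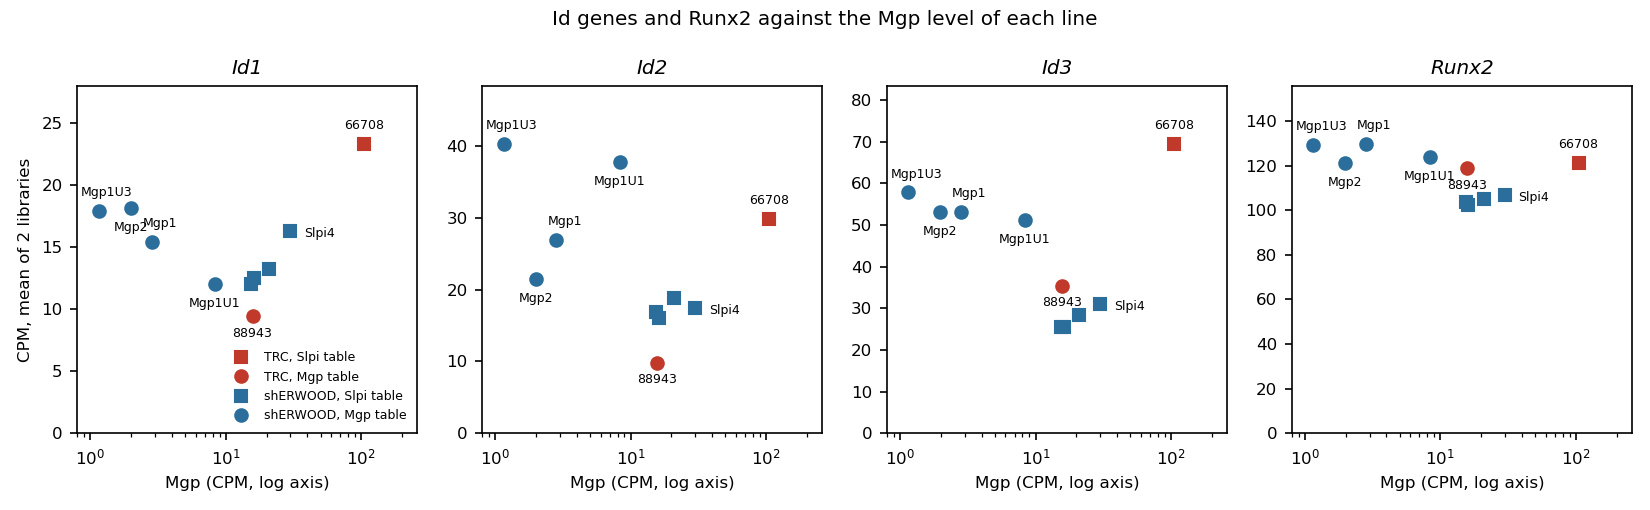
Id1, Id2, Id3 and Runx2 (vertical axes, CPM, mean of 2 libraries) against Mgp (horizontal axis, CPM, log scale) in the 10 lines, with TRC lines in red, shERWOOD lines in blue, squares for the Slpi table and circles for the Mgp table. The Slpi1U1, Slpi1U2 and Slpi2 squares carry no label. Line 66708 has the highest Mgp and the highest Id1 and Id3, while line 88943, with Mgp near that of the Slpi shERWOOD lines, has the lowest Id1 and Id2.

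Over the 10 lines the correlation with Mgp passed the threshold for none of 8 genes, and so few lines can miss a real one. Pearson's r was 0.03 for Id1 (rho 0.02), -0.34 for Id2 (rho -0.39), -0.27 for Id3 (rho -0.31) and -0.52 for Runx2 (rho -0.52). For Smad6 it was 0.28 (rho 0.45), for Smad7 -0.08 (rho -0.22), for Bmpr1a 0.31 (rho 0.13) and for Bmpr2 0.08 (rho 0.01). The smallest permutation p of the 8 was 0.126 for r and 0.133 for rho, both for Runx2, and adjusted over the 8 genes the p-values of r ran from 0.717 to 0.946 and those of rho from 0.704 to 1. Leaving out the 2 lines farthest from the median Mgp level, Mgp1U3 and 66708, gave r of -0.84 for Id3 and -0.76 for Runx2. Of these 2 lines, 66708 had the highest Mgp and the highest Id3, and Mgp1U3 the lowest Mgp and the second highest Id3. The value without 66708 alone was not computed. With a pseudocount of 0.1 CPM the farthest lines were Mgp1U3 and Mgp2, and r without them was 0.07 for Id3 and -0.32 for Runx2.

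Over the 8 shERWOOD lines alone, r was -0.87 for Id3 (rho -0.79) and -0.87 for Runx2 (rho -0.67), with exact permutation p-values for r of 0.0124 and 0.0114, each 0.0494 after adjustment. For rho the exact adjusted p was 0.166 for both genes. Without the lines Mgp1U3 and Mgp2, farthest in Mgp, r was -0.80 and -0.87. The adjustment covered only the 8 genes related to Mgp, and the share of all genes with such an r was not computed. These 8 lines are 4 against Mgp with 1.15 to 8.32 CPM of Mgp and 4 against Slpi with 15.4 to 29.9 CPM. Mgp level, target and table therefore cannot be told apart. The permutations treated the 8 lines as exchangeable, which such groups are not. Any gene that differs between the groups can give a small p-value here, so these p-values do not gauge a relation to Mgp. Within a table, 4 or 5 lines are too few for a correlation.

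Within each table the values can be set side by side. Slpi4 had the most Mgp of the Slpi shERWOOD lines, 29.9 CPM, and the highest mean of Id1 and Id3 there. It was also highest there in Smad6, Smad7, Runx2, Bmpr1a and Slpi, but not in Id2 or Bmpr2. In the Mgp table Mgp1U1, with the most Mgp of its shERWOOD lines at 8.32 CPM, had the lowest Id1 and Id3 and the second highest Id2 of those 4 lines. Mgp1U3, with the least Mgp at 1.15 CPM, had the highest Id2 and Id3. Of these rankings, Id3 was not called among the shERWOOD lines of either table, and Id2 was not called for Mgp1U3 against Mgp1U1. Line 88943, at 15.8 CPM of Mgp, and lines Slpi1U2 and Slpi2, at 16.1 and 15.4 CPM, were close in Mgp. They differed in Id2, with 9.84 CPM in 88943, against 16.1 CPM in Slpi1U2 and 16.9 CPM in Slpi2, across tables and without a test.

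Across the tables and without a test, the shERWOOD lines against Mgp had more Id3 than those against Slpi, with 53.8 ± 2.86 CPM and 27.6 ± 2.65 CPM (SD, n = 4 lines each), and the lines did not overlap. The same held for Id2, with 31.6 ± 8.90 CPM in the lines against Mgp and 17.3 ± 1.14 CPM in the lines against Slpi. Runx2, with 125.9 ± 4.26 and 104.5 ± 1.92 CPM, and Smad7, with 40.8 ± 3.34 and 34.4 ± 1.60 CPM, also did not overlap between the lines against Mgp and those against Slpi. Id1, Smad6, Bmpr1a and Bmpr2 did overlap. The share of all genes without such overlap was not computed, so these values say nothing about BMP genes as a set. Target and table go together in this comparison. Of the TRC lines, 66708 had 69.5 CPM of Id3 and 88943 had 35.5 CPM.

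The genes most like Id1 over the 10 lines, by Pearson's r of log2(CPM + 1) among 11003 genes tested in both tables, were Stat3 (r = 0.96), Atp6v1e1 (0.94) and 4833439L19Rik (0.93). Stat3, a transcription factor downstream of cytokine receptors, had 107.4 CPM in 66708 and 71.2 CPM in 88943. Those most like Id2 were Rasl2-9 (0.97), Srsf3 (0.97), a splicing factor gene, and Znhit3 (0.96). For Id3 they were Rwdd2b (0.98), Rbm3 (0.98), which encodes a cold-inducible RNA-binding protein, and Hspa1b (0.97), a heat shock protein gene with 31.7 CPM in 66708 and 15.5 CPM in 88943. Among the 10 genes, Id3 was closest to Runx2 (r = 0.90) and Id2 to Id3 (r = 0.72), while Id1 and Bmpr2 ran opposite (r = -0.75). These values describe 10 points that share tables and hairpin sources.

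The other genes of the pathway, taken from fixed lists, showed both directions in each TRC line. The counts below stand beside 29.3% of all genes called higher and 24.5% lower in 66708, and 31.3% and 37.2% in 88943. Of 18 genes for BMPs and related ligands only 6 were expressed enough to test. In 66708, 2 were higher, 2 lower and 2 not called. Bmp7, an epithelial BMP, fell to 41.2 ± 0.216 CPM in 66708 (SD, n = 2 libraries), against 72.7 to 83.8 CPM in the shERWOOD libraries (log2 difference -0.57, limma, adjusted p = 2.66e-09). Inhba, the activin A subunit, was lower with overlapping libraries (-0.25, adjusted p = 0.00543), and Tgfb3 was higher (0.26, adjusted p = 0.000127).

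In 88943 4 ligand genes were higher and 2 lower. Inhba had 258.3 ± 5.69 CPM in 88943, against 110.1 to 217.5 CPM in the shERWOOD libraries (0.55, limma, adjusted p = 5.76e-08). Tgfb3 had 62.9 ± 3.64 CPM in 88943, against 26.4 to 38.0 CPM (0.52, adjusted p = 1.36e-09). Gdf11 was lower (-0.14, adjusted p = 0.00143). Tgfb3 was therefore higher in both TRC lines, unlike Id1, Id2 and Id3.

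Of 19 genes for extracellular antagonists and modulators 4 were tested. In 66708, 3 were higher, Bmp1, Twsg1 and Crim1, and none was lower, although Crim1 did not pass with voom (adjusted p = 0.111). Bmp1, a metalloprotease gene whose product cleaves the antagonist chordin, had 237.2 ± 2.96 CPM in 66708 against 162.9 to 175.9 CPM (0.51, limma, adjusted p = 1.22e-08) and 253.5 ± 0.142 CPM in 88943 against 135.0 to 158.5 CPM (0.54, adjusted p = 3.27e-10). In 88943 Twsg1 (-0.16, adjusted p = 0.000401) and Crim1 (-0.22, adjusted p = 1.23e-05) were lower, the call for Twsg1 being lost with voom (adjusted p = 0.311).

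Of 14 further receptor and co-receptor genes 11 were tested, with 5 higher and 1 lower in 66708, and 3 higher and 3 lower in 88943 (7 higher and 2 lower with voom). Tgfbr1, the type I TGF-beta receptor gene, moved as Id1, Id2 and Id3 did. It had 196.7 ± 14.5 CPM in 66708, against 116.4 to 158.0 CPM in the shERWOOD libraries (0.52, limma, adjusted p = 9.36e-08), and 155.8 ± 1.67 CPM in 88943, against 165.6 to 196.6 CPM (-0.30, adjusted p = 1.89e-06). Neo1, a co-receptor gene, was higher in 66708 (0.30, adjusted p = 4.08e-06), and the activin receptor gene Acvr2b was lower (-0.21, adjusted p = 0.000217). In 88943 Acvr1b was higher (0.23, adjusted p = 5.67e-06) and Tgfbr2 lower (-0.28, adjusted p = 4.6e-07).

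Of the signalling Smads and their modifiers 16 of 17 were tested, and their counts turned with the scaling. In 66708, 3 were higher and 5 lower, or 1 and 8 with voom, which called 20.2% of all genes higher and 35.4% lower. In 88943, 7 were higher and 6 lower, or 8 and 0 with voom, which called 45.6% of all genes higher and 25.8% lower. Skil, a corepressor gene of the TGF-beta Smads, was lower in 66708 (-0.23, limma, adjusted p = 9.29e-05) and higher in 88943, at 301.9 ± 3.98 CPM against 182.9 to 223.1 CPM (0.37, adjusted p = 7.58e-07). Smad2 was higher (0.21, adjusted p = 0.000311) and the receptor-Smad anchor gene Zfyve9 lower (-0.25, adjusted p = 5.84e-05) in 66708. The small phosphatase genes Ctdsp2 (0.47, adjusted p = 1.3e-09) and Ctdsp1 (0.28, adjusted p = 0.000195) were higher in 88943.

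**Figure D4:**
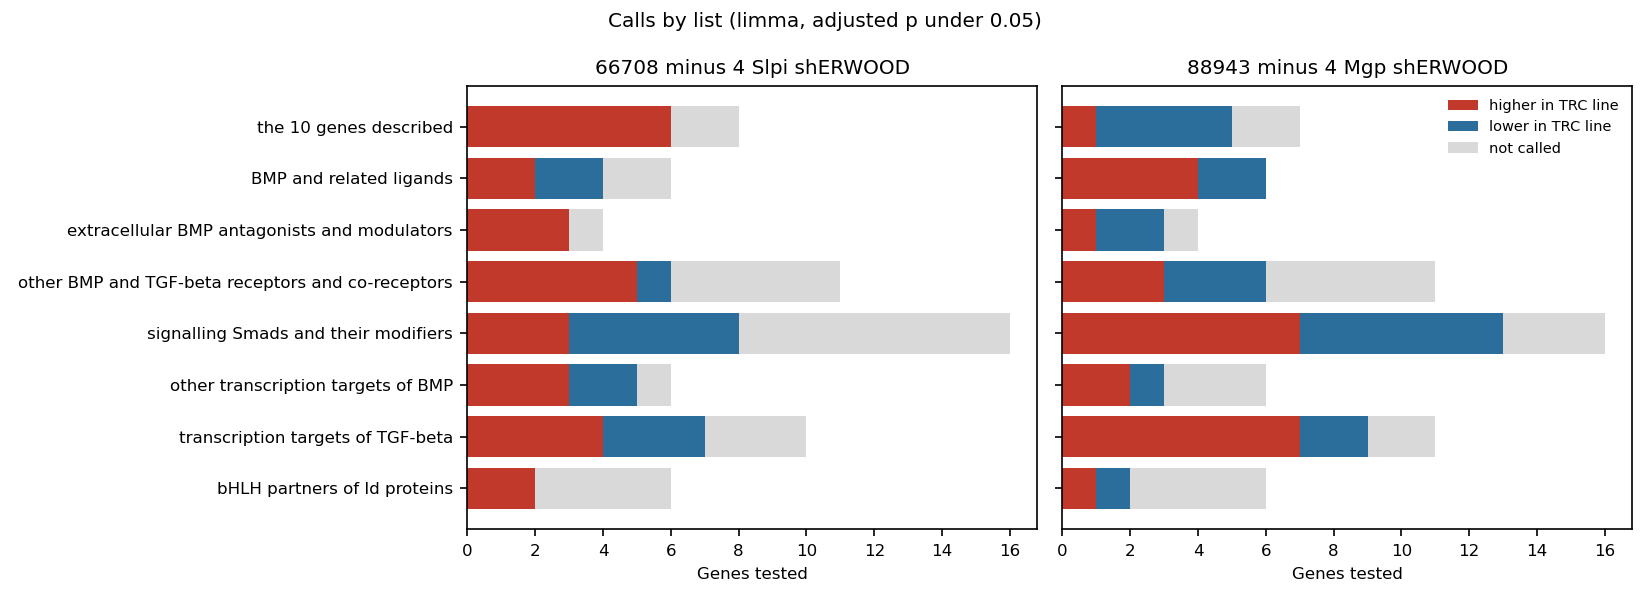
Number of tested genes (horizontal axis) in the 10 genes described and 7 other lists that were higher (red), lower (blue) or not called (grey) in 66708 (left) and in 88943 (right) relative to their 4 shERWOOD lines. The 10 genes described have 6 higher and 0 lower in 66708 and 1 higher and 4 lower in 88943, and the list of Smads and modifiers has 3 higher and 5 lower in 66708 and 7 higher and 6 lower in 88943.

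The other BMP targets that could be tested showed both directions in each TRC line. Of 18 such genes 6 were tested, with 3 higher and 2 lower in 66708 and 2 higher and 1 lower in 88943. Over all genes 29.3% were higher and 24.5% lower in 66708, and 31.3% and 37.2% in 88943. So few tested genes say little about the list. Hes1, a repressor gene also driven by Notch, was higher in 66708 (0.32, limma, adjusted p = 2.72e-05) and lower in 88943 (-0.12, adjusted p = 0.0277), where voom gave an adjusted p of 0.176. Gata3, a luminal transcription factor gene, was higher in both, with 148.1 ± 8.09 CPM in 66708 against 88.1 to 120.6 CPM (0.49, adjusted p = 1.87e-06) and 119.7 ± 3.28 CPM in 88943 against 78.6 to 102.2 CPM (0.19, adjusted p = 0.00178). Klf10 was lower in 66708 (-0.20, adjusted p = 0.000243), and Junb was higher in 88943 (0.43, adjusted p = 1.95e-07).

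Of 13 transcription targets of TGF-beta 10 were tested in the Slpi table, with 4 higher and 3 lower in 66708, and 11 in the Mgp table, with 7 higher and 2 lower in 88943. In 88943 Pmepa1 had 536.1 ± 25.2 CPM against 173.4 to 369.7 CPM in the shERWOOD libraries (0.85, limma, adjusted p = 3.59e-10). Bhlhe40 had 196.8 ± 0.239 CPM in 88943 against 76.6 to 106.6 CPM (0.76, adjusted p = 5.68e-12), and Cyr61 was lower (-0.51, adjusted p = 5.86e-10). In 66708 Ctgf (0.63, adjusted p = 6.79e-09) and Ltbp2 (0.21, adjusted p = 0.000215) were higher and Cdkn1a, a cell cycle inhibitor gene, was lower (-0.20, adjusted p = 0.000668). Over all genes 31.3% were called higher and 37.2% lower in 88943, and the lists were not tested against each other.

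Of 10 bHLH genes listed beside the Id genes, not all of them for partners of Id proteins, 6 were tested. In 66708 Twist1 (0.15, limma, adjusted p = 0.00308) and Tcf4 (0.11, adjusted p = 0.0104) were higher, the call for Tcf4 being lost with voom (adjusted p = 0.412), and none was lower. In 88943 Hes6 was higher (0.16, adjusted p = 0.000955) and Mnt lower (-0.25, adjusted p = 2.25e-05). The E protein genes Tcf3 and Tcf12, unlike the E protein gene Tcf4 in 66708, passed in neither line on the deposited scale. Tcf3 had a log2 difference of 0.07 in 66708 and 0.08 in 88943, where voom gave 0.24 (adjusted p = 0.000132). Tcf12 had -0.03 in 66708, where voom gave -0.11 (adjusted p = 0.0447), and -0.04 in 88943, where voom gave 0.09 (adjusted p = 0.0723).

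Fibroblast markers, of which nearly all was Pdgfra, summed to 42.0 to 42.1 CPM in 66708 against 40.1 to 53.5 CPM in its shERWOOD lines, and to 55.4 to 58.1 CPM in 88943 against 25.1 to 34.5 CPM in its shERWOOD lines. The sum was thus higher in 88943, where Id1, Id2 and Id3 were lower. It overlapped between 66708 and its shERWOOD lines, where Id1, Id2 and Id3 differed too. Whether Pdgfra and the Id genes are related was not tested. In bulk RNA a smaller share of cells with a transcript and less transcript per cell cannot be told apart.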

How the data were processed

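RNA was measured by sequencing in 4T1 cells, and the values used are the authors' deposited variance-stabilised values on a log2 scale, in 2 tables (hairpins against Slpi, hairpins against Mgp) of 10 columns each. The submitters' processing notes name mm10, Bowtie2, HTSeq and DESeq, without versions. Per the labels' protocols, 100 ng of RNA was amplified, sheared to a target of 200 bp and read at 76 bp. The annotation and the strand setting of the counting are both not given in sources used here. The labels list 40 samples, 4 per hairpin, and the 20 columns, 2 per hairpin, could be tied to hairpins only. On the log2 scale genes without reads share the smallest value, 7.92 for Slpi and 8.12 for Mgp, so differences of weakly expressed genes are understated, a doubling from 100 to 200 scaled reads being 0.36 units in the Slpi table.

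The transform was inverted, and 100% of values gave whole reads within a tolerance of 0.001. CPM were computed from these reads and library totals. Tests were limma's (3.58.1, R 4.3.3) with an intensity trend on the deposited values, over the 5 lines of a table, two-sided, and p-values were adjusted by Benjamini and Hochberg's method (Benjamini-Hochberg) across every gene whose mean lay at least 0.5 units above the smallest value, and a threshold of 0.05. Folds came from limma's voom on the recovered reads. Correlations used log2(CPM + 0.5) of line means with 100000 permutations, or all orders for 8 lines. The fits were tested on simulated data. The 10 genes, the gene lists, the tests and the rule for named genes (up to 3 called genes of largest difference per list and comparison) were chosen with earlier results of these data known, and Tcf3, Tcf12, Rn45s, Ibsp and Pdgfra were named after their values were seen. Alternatives tried were the minimum level, voom, equal library medians, quantile normalisation, a replicate block, line means as samples, and leaving out each library and each shERWOOD line. Coordinates are from GENCODE M21 (GRCm38) and promoter windows from RefSeq (GRCm38.p6) for 8 of the 10 genes.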

Additional observations from a re-analysis of the deposited data

Results flagged for a closer look

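Id1, Id2, Id3 and Runx2 were picked out because both libraries of the TRC line lay outside the range of the 8 shERWOOD libraries in each table, above it in the Slpi table and below it in the Mgp table, on the deposited log2 scale. For Id1 the log2 difference from the shERWOOD lines was 0.43 in 66708 and -0.35 in 88943. For Id2 it was 0.47 in 66708 and -0.82 in 88943. Id3 had 0.93 in 66708 and -0.47 in 88943. Runx2 had 0.25 in 66708 and -0.17 in 88943, but in CPM its 88943 libraries overlapped the shERWOOD range. Over all tested genes, both TRC libraries lay above the range for 25.8% in 66708 and below it for 31.9% in 88943. The share of all genes with both placements was not computed, so the pattern is not shown to be particular to these genes. The difference between the tables was not tested for any of the 4 genes. No shERWOOD line stood apart from the other 3 of its table by Dixon's test in the 16 sets of 4 line means examined, where chance flags about 1 in 20.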

How the results depend on the processing

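The 6 genes called higher in 66708 and the lower calls of Id1, Id2 and Id3 in 88943 were called in every alternative run. Over 397 alternative fits of the log2 differences of 8 of the genes in the Slpi table, 7 in the Mgp table and both targets in each, 377 left the call as it was, 3 lost it, 17 gained it and 0 turned the direction. The count of genes lower in 66708 was 0 and became 1, Bmpr2, with voom and with quantile normalisation. Among the Slpi shERWOOD lines it was 0 and became 1, Id1, with quantile normalisation, and ranged from 0 to 1 when each library was left out (adjusted p = 0.0395 without Slpi1U1 replicate 2 and 0.0314 without Slpi2 replicate 2). The count higher in 88943 was 1. It became 2 with no minimum level, 3 with voom, 3 with equal library medians, 3 with quantile normalisation and 2 without line Mgp1, without line Mgp1U1 and without line Mgp1U3, and it ranged from 1 to 3 when each library was left out. The genes gained were Smad6, Smad7 and Bmpr1a. Of all genes, 22.2% were higher in 88943 with no minimum level, 45.6% with voom, 34.3% with equal library medians and 32.4% with quantile normalisation. With the replicate number as a block the count higher in 88943 was 2, Bmpr1a being added (adjusted p = 0.0466), and the count higher in 66708 stayed 6. Same-numbered libraries deviated together in some pairs of lines and oppositely in others. Correlations were -0.48 to 0.50, with 3 of 10 over 0.1, in the Slpi table and -0.15 to 0.26, with 4 of 10, in the Mgp table. In each Slpi shERWOOD line replicate 2 had a larger share of Rn45s reads than replicate 1, and in 66708 a smaller one. The main fit did not take the numbers as pairs, so a shared replicate effect is covered only by the block fit. Among the Mgp shERWOOD lines 5 genes became 3 with no minimum and ranged from 2 to 6 when each library was left out. Lowest was the fit without Mgp1U1 replicate 1. The count of genes whose correlation with Mgp passed was 0 and became 2 over the 8 shERWOOD lines, where the permutations ignored target and table. The call of Runx2 as lower in 88943 was lost with voom, with quantile normalisation (adjusted p = 0.2) and with line means as samples. Of all called genes, 54.5% were higher in 66708, against 43.1% with equal medians and 36.4% with voom, and 45.6% in 88943, against 49.7% and 63.9%. With line means as samples, 1974 genes were higher and 1468 lower in 66708, against 3291 and 2753, and 2201 and 2656 in 88943, against 3450 and 4108. Where a fit left 1 library of a line, that library was assumed to vary like the others. The causes were not tested. Id4 and Bmp4 are limited by depth.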
